A study of Mus musculus with 18 samples.

Results

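The comparison concerns what a larger dose of T cell receptor stimulus did to splenic CD4 T cells that were also given an antibody against Ox40. RNA of 6 of the series' 18 libraries was compared: 3 from anti-Ox40 cultures with high beads and 3 from anti-Ox40 cultures with low beads, chosen by their labels. Spleens were taken from NZB/W F1 females, the hybrid of NZB and NZW mice that spontaneously develops a lupus-like kidney disease. The mice were 21 to 27 weeks old with proteinuria of 30 to 100 mg/dL, and CD4 T cells were enriched with an isolation kit. All wells, in every group, held 250000 cells and IL-2 at 10 U/mL and were harvested at 48 hours. The high-bead group received 1 bead per cell and the low-bead group 0.1 bead per cell, the beads carrying antibodies to CD3 and CD28, and both received anti-Ox40 of the IgG1 class at 25 µg/mL. For context, values are also given for anti-Ox40 with no beads and for cultures with an isotype control IgG1 (control Ig) at the same concentration and the same bead doses, 3 libraries in each group. The labels do not say whether replicates were separate mice, pools or wells, so each p-value speaks of the spread among libraries and no more.

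The T cell receptor acts through the CD3 chains, and CD28 is the costimulatory receptor that has to be engaged with it for full activation; beads that bind both are a standard replacement for an antigen-presenting cell. Ox40, encoded by Tnfrsf4, is a member of the TNF receptor family that appears on CD4 T cells after activation and signals through TRAF adaptors to NF-kB, sustaining their survival, division and cytokine production. An agonist antibody can stand in for its ligand, Ox40L, which is encoded by Tnfsf4.

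Gene levels were deposited as nRPKM, reads scaled by gene length and library size with a further normalization by the authors. Read numbers worked out from the steps in the values put 1 nRPKM over 1 kb at 32.45 to 43.8 reads in the high-bead libraries and 31.65 to 43.6 reads in the low-bead libraries, which sets counting error only. Libraries of a group correlated across genes at 0.994 to 0.995 for high beads and 0.992 to 0.993 for low beads, and between the groups at 0.936 to 0.953. A list of 10 measured CD4 T cell marker genes summed to 1597 to 1670.0 nRPKM in high-bead libraries and 1828 to 1926 nRPKM in low-bead libraries. Of the 2 CD8 genes listed, Cd8a was at 0.314 nRPKM or less in all 6 libraries and was not tested, while Cd8b1 had 4.35, 4.51 and 4.39 nRPKM with high beads against 6.25, 5.49 and 6.05 nRPKM with low beads and was called lower (log2 change -0.35 ± 0.10).

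Of 13075 genes tested, 9348 (71.5%) differed between high and low beads at an adjusted p under 0.05 (limma on log2(nRPKM + 1), Benjamini-Hochberg over all tested genes), 5264 (40.3%) higher and 4084 (31.2%) lower. Most of these differences were small. At least a 2-fold change on that scale together with the same adjusted p was found for 1018 genes (7.79%), 458 higher (3.5%) and 560 lower (4.28%). The median log2 change over all tested genes was 0.053, and 66 genes rose and 67 fell by a log2 of at least 2. Libraries of the 2 groups did not overlap for 9914 genes (75.8%), in 5527 of which (42.3%) the high-bead libraries were the higher ones. A count of called members in a list below is read against these shares. With the level of nuclear-retained RNA as a covariate 4955 genes were called, 2661 higher and 2294 lower; the nuclear RNA score, a mean log2(nRPKM + 1) of Malat1, Neat1 and Kcnq1ot1, was 3.92 to 4.03 in high-bead libraries and 5 to 5.05 in low-bead libraries, and its part in the result was not tested. In these bulk libraries fewer cells of a type and less RNA per cell cannot be told apart.

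Tnfrsf4, the Ox40 gene, was itself higher with more beads. It stood at 126, 115 and 119 nRPKM in the high-bead libraries, against 51.8, 46.1 and 45.4 nRPKM in the low-bead libraries. The groups did not overlap, and the log2 change was 1.31 ± 0.08 (SE; limma adjusted p = 6.16e-10). Its ligand gene Tnfsf4 was low throughout, at 4.93, 3.93 and 3.52 nRPKM with high beads against 1.64, 1.73 and 1.89 nRPKM with low beads, a log2 change of 0.89 ± 0.11. The high-affinity IL-2 receptor chain gene Il2ra had 865, 807 and 895 nRPKM with high beads and 285, 312 and 284 nRPKM with low beads, a log2 change of 1.54 ± 0.07. Cd69, an early activation marker that retains cells in tissue, had 23.7, 26.6 and 19.2 nRPKM with high beads against 10, 10.2 and 9.27 nRPKM with low beads, a log2 change of 1.15 ± 0.09. Each of these 4 genes was higher in every high-bead library than in any low-bead library. Cd28, whose product the beads bind, moved little. It averaged 136 ± 11.3 nRPKM with high beads and 115 ± 6.88 nRPKM with low beads (SD, n = 3 each). Its log2 change of 0.24 turned to -0.06 under quantile normalization. Cd4 was lower, at 179, 174 and 175 nRPKM with high beads against 267, 238 and 241 nRPKM with low beads, a log2 change of -0.49 ± 0.05.

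Among 13 tested TNF receptor genes, 7 rose and 6 fell, 5 and 1 of them at least 2-fold, with a median log2 change of 0.46 against 0.053 for all tested genes. Among those that rose were receptors induced on activated T cells. Tnfrsf8, which encodes CD30, had 151, 138 and 156 nRPKM in high-bead libraries, against 39.1, 32 and 26.1 nRPKM in low-bead libraries, a log2 change of 2.18 ± 0.14. Tnfrsf18, which encodes GITR and was the most abundant per length of the 5 named here, had 459, 426 and 445 nRPKM with high beads against 211, 197 and 189 nRPKM with low beads, a log2 change of 1.15 ± 0.09. Tnfrsf9, which encodes 4-1BB, averaged 121 ± 21.8 nRPKM with high beads and 56.9 ± 7.84 nRPKM with low beads, a log2 change of 1.07 ± 0.16. Tnfrsf14, which encodes HVEM, the partner of the inhibitory receptor BTLA, went the other way, at 14.8, 16.4 and 14.9 nRPKM with high beads against 32.3, 32.3 and 31 nRPKM with low beads, a log2 change of -1.01 ± 0.06. Ligand genes of the family were mostly lower, 7 of 12 tested against 3 higher, with a median of -0.50. Cd40lg, the helper signal to B cells, averaged 8.52 ± 0.822 nRPKM with high beads and 31.4 ± 1.56 nRPKM with low beads, a log2 change of -1.77 ± 0.07. Tnfsf11, which encodes RANKL, had 3.95 ± 0.163 nRPKM with high beads against 12 ± 0.64 nRPKM with low beads (log2 change -1.39 ± 0.06). Ltb, a component of the lymphotoxin heterotrimer, had 256 ± 16 nRPKM with high beads against 481 ± 5.24 nRPKM with low beads (log2 change -0.91 ± 0.06).

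The largest increase of any tested gene was in Tgm2, a transglutaminase that cross-links proteins. Tgm2 had 298, 279 and 378 nRPKM in high-bead libraries against 11, 10.9 and 10.6 nRPKM in low-bead libraries, a log2 change of 4.74 ± 0.17 (adjusted p = 7.14e-12). Il24, a cytokine of the IL-10 family, had 98.4, 107 and 112 nRPKM with high beads against 2.73, 6.1 and 3.56 nRPKM with low beads, a log2 change of 4.43 ± 0.22, and was at 0 in all 3 anti-Ox40 libraries without beads. Next in size was Il21, given with the cytokines. The stress-induced transcription factor gene Atf3 had 40.3, 32.2 and 25 nRPKM with high beads against 2.3, 2.9 and 1.55 nRPKM with low beads (log2 change 3.36 ± 0.22). Cth, which makes cysteine from cystathionine, had 34, 25.1 and 26.4 nRPKM with high beads against 1.71, 1.78 and 2.12 nRPKM with low beads (log2 change 3.35 ± 0.14). Every high-bead value of these genes lay above every low-bead value. Lack of overlap was a condition of their choice, and 75.8% of all tested genes showed it in either direction. The other genes of the 15 with the largest increases were the metallothioneins Mt1 and Mt2, the oxygen sensor gene Egln3, granzyme B (Gzmb), the chemokine receptor gene Ccr8, Kremen2 (a receptor of Wnt-inhibiting Dickkopf proteins), Irf4, Il12rb2, Tg (thyroglobulin, at 10.4 nRPKM with high beads against 0.664 nRPKM with low beads) and the fatty acid desaturase gene Fads2, with log2 changes of 2.77 to 3.33. Gzmb had 119, 149 and 140.0 nRPKM with high beads and 18.2, 14.9 and 13.8 nRPKM with low beads.

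The largest decrease was in Ms4a4b, a membrane protein of T cells. Its 3 high-bead values differed among themselves, at 16.6, 56 and 20.6 nRPKM, yet all lay far below the 432, 451 and 454 nRPKM of the low-bead libraries, and the log2 change was -4.00 ± 0.32 (adjusted p = 2.26e-08). Cd7, a glycoprotein of T and NK cells, had 1.25, 3.96 and 1.4 nRPKM with high beads against 31.7, 34.6 and 31.2 nRPKM with low beads, a log2 change of -3.48 ± 0.25. Its high-bead values, like those of Ms4a4b, were highest in replicate 2. Scg5, known as a chaperone of a prohormone convertase, had 2.29, 4.35 and 3.71 nRPKM with high beads against 35.7, 38.4 and 41 nRPKM with low beads (log2 change -3.17 ± 0.16). Ifi203, Mndal and Pydc3, neighbours in a cluster of interferon-inducible genes on chromosome 1, changed by -3.28, -3.25 and -2.67 on the log2 scale; Pydc3 had 0.29, 0.578 and 0.214 nRPKM with high beads against 7.43, 7.72 and 7.76 nRPKM with low beads. The rest of the 15 were Snord35b, a small nucleolar RNA whose reads cannot be separated from those of a host transcript, Ms4a4c, Drc1 (a regulator of ciliary dynein), Tmem71, Smpdl3a (a phosphodiesterase related to acid sphingomyelinase), Fam26f, Sntb1 (a syntrophin), Lpar6 (a lysophosphatidic acid receptor) and LOC102642787, with log2 changes of -2.63 to -3.93.

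**Figure D1:**
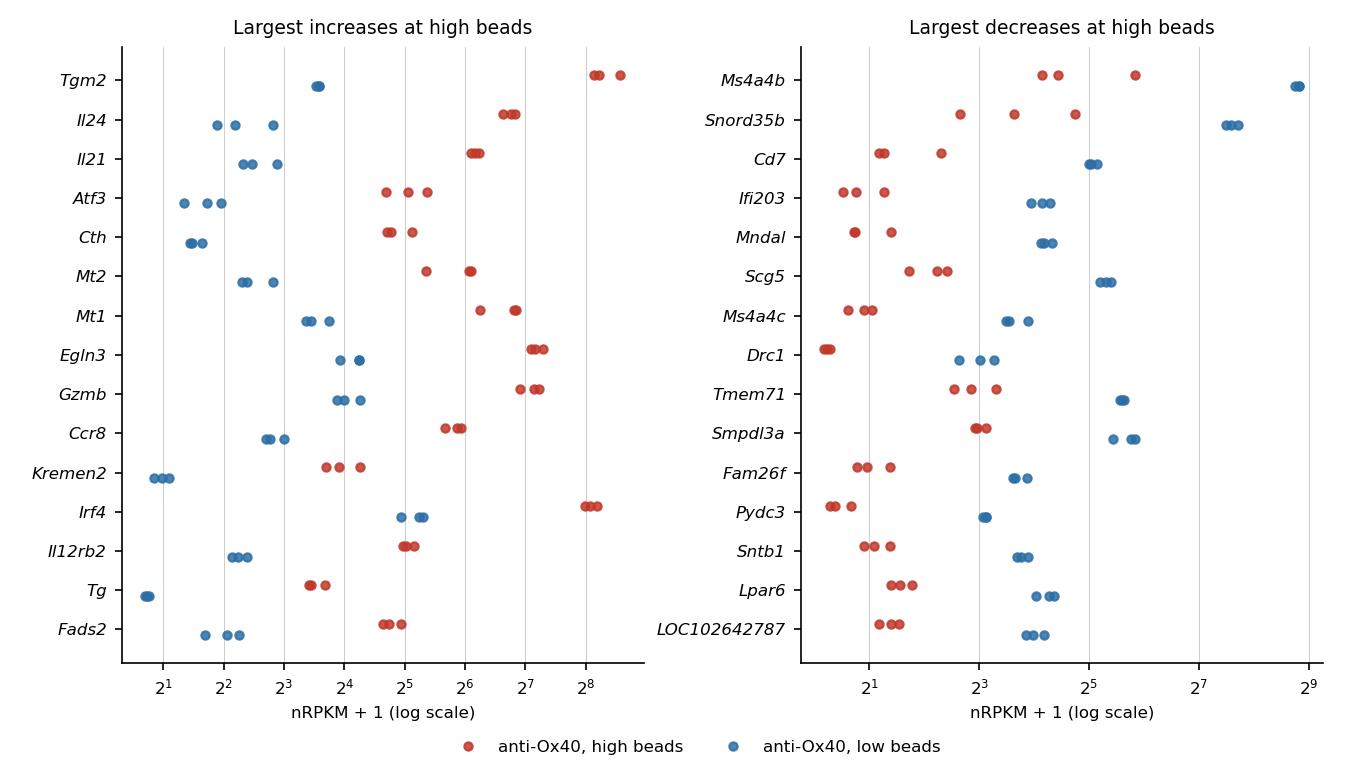
Levels of the 15 genes with the largest increases (left) and the 15 with the largest decreases (right) in each of the 6 anti-Ox40 libraries, as nRPKM + 1 on a log scale; each point is 1 library, red for high beads and blue for low beads. The genes were picked from those without overlap between the groups, so its absence here is no finding. The 3 high-bead values spread widely for Ms4a4b and Snord35b.

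Cytokine genes moved in both directions. Of 23 tested, 12 rose and 6 fell (9 and 3 by at least 2-fold), with a median log2 change of 0.44. Il21, which drives germinal centre B cells and plasma cell formation, had 74.4, 70.6 and 67.2 nRPKM in high-bead libraries against 6.36, 4.52 and 3.99 nRPKM in low-bead libraries, a log2 change of 3.61 ± 0.18. The type 2 cytokine gene Il13 had 47.7, 59 and 62.6 nRPKM with high beads against 6.64, 14.3 and 8.34 nRPKM with low beads, a log2 change of 2.47 ± 0.23. Il4, which drives class switching to IgE, had 29.1, 31.9 and 26.6 nRPKM with high beads against 4.61, 6.88 and 5.36 nRPKM with low beads, a log2 change of 2.20 ± 0.13. All 3 genes were higher in each high-bead library. Il10, an anti-inflammatory cytokine that also acts on B cells, averaged 13.6 ± 2.83 nRPKM with high beads and 2.27 ± 1.01 nRPKM with low beads, a log2 change of 2.19 ± 0.27. Lif, an IL-6 family cytokine, averaged 45.1 ± 4.23 nRPKM with high beads and 8.16 ± 1 nRPKM with low beads (log2 change 2.34 ± 0.09). In contrast Ifng, the type 1 effector cytokine, fell and was low in both groups, at 1.89, 2.04 and 0.678 nRPKM with high beads against 3.54, 3.95 and 3.25 nRPKM with low beads (log2 change -0.90 ± 0.24, adjusted p = 0.0031). The chemokine genes Xcl1, Cxcl10 and Ccl22 fell as well. Xcl1, which attracts cross-presenting dendritic cells, averaged 0.117 ± 0.049 nRPKM with high beads and 4.28 ± 0.267 nRPKM with low beads, and the call of Ccl22 (log2 change -1.25 ± 0.42) was lost when some single libraries were left out. Il2 did not pass the test, at 2.02, 2.63 and 0.701 nRPKM with high beads against 0.945, 1.62 and 0.566 nRPKM with low beads (log2 change 0.41 ± 0.22, adjusted p = 0.105), in cultures that all held added IL-2.

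Of 28 cytokine receptor genes, 8 rose and 14 fell, with a median of -0.29. Both chains of the IL-12 receptor rose. Il12rb2 had 31.5, 30.5 and 34.4 nRPKM with high beads against 3.73, 4.26 and 3.42 nRPKM with low beads (log2 change 2.79 ± 0.10). Il12rb1 had 75.1, 72.8 and 73.8 nRPKM with high beads against 22.6, 23.4 and 19.9 nRPKM with low beads (log2 change 1.71 ± 0.09). Both chains of the receptor for IL-18, a cytokine known to act together with IL-12, fell. Il18r1 had 3.32, 3.97 and 2.99 nRPKM with high beads against 30, 23.1 and 24.7 nRPKM with low beads (log2 change -2.60 ± 0.14). Il18rap averaged 0.954 ± 0.129 nRPKM with high beads against 6.25 ± 0.556 nRPKM with low beads (log2 change -1.89 ± 0.17). The 4 genes did not overlap between groups. Il21r rose beside its cytokine, at 158 ± 5.07 nRPKM with high beads and 60.4 ± 3.52 nRPKM with low beads (log2 change 1.38 ± 0.07). Of the other IL-2 receptor chains, Il2rb had a log2 change of 0.59 ± 0.08 and the common gamma chain gene Il2rg one of -0.08 ± 0.06 (adjusted p = 0.223). Il7r, the receptor for a survival cytokine of resting T cells, fell, at 39.2 ± 5.31 nRPKM with high beads against 70.2 ± 5.56 nRPKM with low beads (log2 change -0.83 ± 0.11).

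Chemokine receptor genes moved in both directions. Of 15 tested, 3 rose, all by at least 2-fold, and 9 fell, 5 of them by at least 2-fold. Ccr8, the receptor of CCL1, had 57.4, 49.6 and 60.1 nRPKM with high beads against 5.53, 7.03 and 5.8 nRPKM with low beads (log2 change 2.99 ± 0.13). Ccr4, a receptor of skin-homing T cells, averaged 57.4 ± 1.22 nRPKM with high beads against 22.5 ± 1.45 nRPKM with low beads (log2 change 1.31 ± 0.07). S1pr1, which lets T cells leave lymphoid organs along a lipid gradient, fell to 17.9, 27.1 and 20.4 nRPKM with high beads, against 116, 119 and 122 nRPKM with low beads (log2 change -2.41 ± 0.13). Cxcr3, the receptor of interferon-induced chemokines, fell to 18.1 ± 0.774 nRPKM with high beads, against 65.5 ± 16.9 nRPKM with low beads (log2 change -1.77 ± 0.16), and Ccr9, the gut-homing receptor, to 0.187 ± 0.024 nRPKM with high beads, against 2.89 ± 0.292 nRPKM with low beads (log2 change -1.71 ± 0.08). Ccr7, which holds T cells in lymph nodes, did not pass the test, at 189 ± 22 nRPKM with high beads against 203 ± 16 nRPKM with low beads (log2 change -0.10 ± 0.12, adjusted p = 0.45).

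The transcription factors that translate receptor strength into effector programmes included some of the largest changes. Of 16 BATF, IRF and AP-1 genes tested, 9 rose, 8 of them by at least 2-fold, and 3 fell, with a median of 0.83. Irf4, whose level follows the strength of T cell receptor signalling, had 291, 252 and 267 nRPKM in high-bead libraries against 36.9, 38.5 and 29.5 nRPKM in low-bead libraries, a log2 change of 2.92 ± 0.12. Its DNA-binding partner gene Batf had 256, 258 and 272 nRPKM with high beads against 77.3, 85.2 and 77.2 nRPKM with low beads (log2 change 1.70 ± 0.08). The related Batf3 had 38.7, 33.5 and 31.7 nRPKM with high beads against 4.71, 4.71 and 3.73 nRPKM with low beads (log2 change 2.73 ± 0.14). All 3 genes were several-fold higher in each high-bead library. The AP-1 gene Fosl2 averaged 32.9 ± 6.5 nRPKM with high beads and 4.45 ± 0.315 nRPKM with low beads (log2 change 2.62 ± 0.11). Nfil3, a basic leucine zipper repressor, averaged 72.1 ± 7.25 nRPKM with high beads and 12.9 ± 1.15 nRPKM with low beads (log2 change 2.39 ± 0.12).

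Lineage factor genes of both main helper types rose. Gata3, of type 2 cells, had 104, 109 and 128 nRPKM with high beads against 38.7, 44.7 and 35.6 nRPKM with low beads (log2 change 1.50 ± 0.11). Tbx21, which encodes T-bet of type 1 cells, had 26.1, 27.9 and 26.6 nRPKM with high beads against 10.6, 9.47 and 8.95 nRPKM with low beads (log2 change 1.39 ± 0.07). Over the 28 lineage factor genes tested 12 rose and 13 fell, 8 and 7 of them by at least 2-fold, with a median of -0.11. Others that rose by at least 2-fold were Bhlhe40, Prdm1 (which encodes Blimp-1), Runx3, Ikzf3, Ahr and Stat5a, with log2 changes of 1.05 to 1.63. Bcl6, the factor of follicular helper cells that opposes Blimp-1, fell to 1.1, 1.51 and 1.39 nRPKM with high beads, against 9.9, 8.64 and 8.41 nRPKM with low beads (log2 change -2.10 ± 0.08). Tox, Id3, Stat4, Eomes and Ikzf2 fell by at least 2-fold too, with log2 changes of -1.41 to -1.93. Among 14 follicular helper genes 5 rose and 9 fell (median -0.61), and the cytokine and the factor of that list moved in opposite directions: Il21 rose while Bcl6 fell, as did Slamf6 (log2 change -1.40 ± 0.16) and Pou2af1 (log2 change -1.71 ± 0.30), the last a gene that B cells express strongly. Cxcr5, the follicle-homing receptor, had 4.16 ± 0.915 nRPKM with high beads and 9.22 ± 2.32 nRPKM with low beads (log2 change -0.98 ± 0.19).

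Regulatory T cell genes did not move as 1 group, with 5 of 16 higher and 7 lower and a median of -0.23. Foxp3, the factor that defines these cells, fell to 31.7, 21.3 and 24.5 nRPKM in high-bead libraries, against 75.2, 48.9 and 61.5 nRPKM in low-bead libraries (log2 change -1.23 ± 0.20). Ikzf2, which encodes Helios, averaged 4.58 ± 0.903 nRPKM with high beads and 17.8 ± 4.02 nRPKM with low beads (log2 change -1.74 ± 0.20). Nrp1, a semaphorin receptor of thymus-derived regulatory cells, averaged 4.83 ± 0.923 nRPKM with high beads and 17.3 ± 4.4 nRPKM with low beads (log2 change -1.64 ± 0.19). In all 3 genes the low-bead libraries were the higher ones without overlap. The members that rose were Gzmb, Il10, Tnfrsf18, Tigit (log2 change 1.17 ± 0.20) and Ctla4 (log2 change 0.33 ± 0.10), genes that are also induced on activated conventional cells. Which cells held their RNA was not tested. Among 17 checkpoint genes 7 rose and 9 fell. Lag3, an inhibitory receptor for MHC class II, averaged 71.1 ± 11.5 nRPKM with high beads and 12.3 ± 3.9 nRPKM with low beads (log2 change 2.47 ± 0.24), and the costimulator gene Icos 214 ± 10.5 nRPKM with high beads and 104 ± 5.97 nRPKM with low beads (log2 change 1.04 ± 0.07). Nt5e, which encodes the adenosine-producing enzyme CD73, fell to 4.12, 2.73 and 2.32 nRPKM with high beads, against 23.6, 14.2 and 17.4 nRPKM with low beads (log2 change -2.25 ± 0.20), and Cd96, a receptor that competes for the same ligand as TIGIT, to 10.8, 10.6 and 10.3 nRPKM with high beads, against 44.5, 43.6 and 44.1 nRPKM with low beads (log2 change -1.96 ± 0.06). Pdcd1, which encodes PD-1, was lower with high beads, with a log2 change of -0.94 ± 0.15. Of 11 cytotoxic genes 4 rose and 4 fell. Gzma averaged 92.6 ± 24.8 nRPKM with high beads and 21.1 ± 1.51 nRPKM with low beads (log2 change 2.05 ± 0.17). Srgn, the proteoglycan that packs granzymes, averaged 462 ± 14 nRPKM with high beads and 238 ± 12.2 nRPKM with low beads (log2 change 0.95 ± 0.07), while the perforin gene Prf1 fell (log2 change -0.86 ± 0.11).

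Genes of the receptor that the beads engage were modestly lower. Of 24 genes of the T cell receptor complex and its proximal kinases 15 fell and 6 rose, with a median of -0.24. Cd3g averaged 208 ± 23.3 nRPKM with high beads and 300 ± 13.7 nRPKM with low beads (log2 change -0.53 ± 0.08). Cd3e averaged 171 ± 9.91 nRPKM with high beads and 236 ± 7.94 nRPKM with low beads (log2 change -0.47 ± 0.05). The only member to change by at least 2-fold was Txk, a TEC family kinase of resting T cells, at 4.49, 7.26 and 4.78 nRPKM with high beads against 30.1, 34.9 and 31.2 nRPKM with low beads (log2 change -2.37 ± 0.13). Fyn (a Src family kinase) and Ptpn22 (a phosphatase that dampens the receptor) fell by 0.90 and 0.83 on the log2 scale. Immediate early and feedback genes were higher in 17 of 22 cases and lower in 2, with a median of 0.54. Egr2, a factor that restrains activated T cells, had 8.42, 5.59 and 6.73 nRPKM with high beads against 1.61, 1.37 and 1.85 nRPKM with low beads (log2 change 1.59 ± 0.15). Nr4a1, which encodes Nur77, had 10.4, 8.82 and 9.28 nRPKM with high beads against 2.89, 3.01 and 3.33 nRPKM with low beads (log2 change 1.36 ± 0.09), and Egr1 and the phosphatase gene Dusp5 changed by 1.17 and 1.15. NF-kB genes, the pathway downstream of Ox40, showed no change of 2-fold in 20 tested; 10 rose and 6 fell, with a median of 0.20. Bcl3, a nuclear cofactor of NF-kB, averaged 92.5 ± 3.94 nRPKM with high beads and 47.6 ± 4.53 nRPKM with low beads (log2 change 0.95 ± 0.08). Nfkb2 of the non-canonical branch averaged 62.3 ± 8.63 nRPKM with high beads and 33.4 ± 3.38 nRPKM with low beads (log2 change 0.87 ± 0.11), and Traf1 and the kinase gene Ikbkb fell (log2 changes -0.68 ± 0.08 and -0.63 ± 0.06).

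Genes of naive and quiescent T cells were lower with more beads in 25 of 29 cases and higher in 3, 11 and 1 of them by at least 2-fold, with a median of -0.83 against 0.053 for all tested genes. Klf2, the factor that maintains quiescence and drives S1pr1, had 28.8, 43.4 and 36 nRPKM in high-bead libraries against 203, 202 and 193 nRPKM in low-bead libraries, a log2 change of -2.45 ± 0.13. Klf3 averaged 10.4 ± 1.23 nRPKM with high beads and 42.5 ± 1.3 nRPKM with low beads (log2 change -1.93 ± 0.09). Pik3ip1, an inhibitor of PI3 kinase, averaged 5.9 ± 1.26 nRPKM with high beads and 24.6 ± 1.08 nRPKM with low beads (log2 change -1.91 ± 0.13). Tcf7, which encodes TCF-1 of naive and memory cells, had 101, 116 and 97 nRPKM with high beads against 279, 261 and 259 nRPKM with low beads (log2 change -1.34 ± 0.08). The exception that rose by at least 2-fold was Satb1, a chromatin organiser, at 158, 176 and 177 nRPKM with high beads against 57.6, 81.8 and 59.1 nRPKM with low beads (log2 change 1.37 ± 0.15). Gimap genes, GTPases of lymphocyte survival, fell in 6 of 8 cases and rose in 2. Gimap3 averaged 189 ± 15.2 nRPKM with high beads and 357 ± 11.5 nRPKM with low beads (log2 change -0.92 ± 0.07), whereas Gimap5 rose, at 27.9 ± 1.25 nRPKM with high beads and 18.6 ± 0.478 nRPKM with low beads (log2 change 0.56 ± 0.05). The integrin and adhesion list was mixed, with 7 of 21 higher and 12 lower. Ly6a, which encodes Sca-1, was the most raised of these at 789, 876 and 899 nRPKM with high beads against 201, 158 and 189 nRPKM with low beads (log2 change 2.23 ± 0.10), followed by Ly6c1 (2.06 ± 0.10) and Selp (1.98 ± 0.15), and the integrin chain gene Itga4 fell to 14.2 ± 0.182 nRPKM with high beads, against 48.8 ± 9.23 nRPKM with low beads (log2 change -1.70 ± 0.15).

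**Figure D2:**
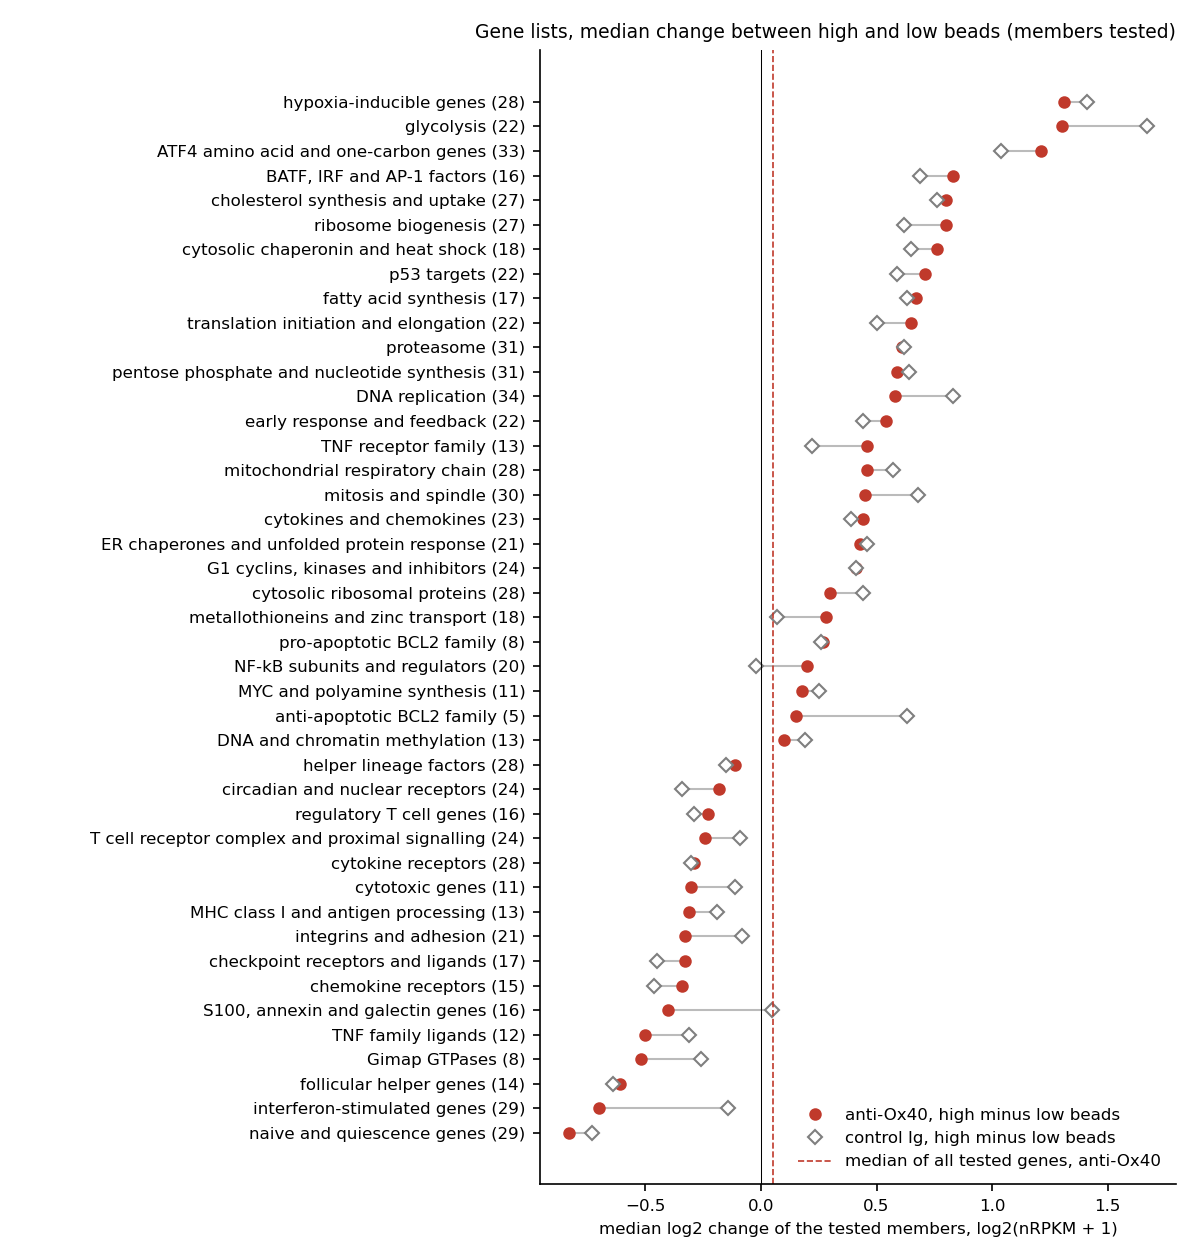
Median log2 change between high and low beads of the tested members of each gene list, with the number of members in parentheses; red circles are anti-Ox40, open grey diamonds are control Ig, and the dashed line is the median of all tested genes under anti-Ox40. Hypoxia-inducible, glycolysis and ATF4 genes have the highest medians under anti-Ox40 (1.31, 1.30 and 1.21), and naive and interferon-stimulated genes the lowest (-0.83 and -0.70).

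Metabolic genes were mostly higher with more beads. All 33 tested genes of the ATF4 list rose, 19 of them by at least 2-fold, with a median log2 change of 1.21. ATF4 is the factor that raises amino acid transporters, amino acid synthesis and transfer RNA synthetases when amino acids run short or mTORC1 is active. Atf4 had 340.1, 301 and 306 nRPKM in high-bead libraries against 129, 134 and 127 nRPKM in low-bead libraries (log2 change 1.27 ± 0.07), and its target Asns, asparagine synthetase, 119, 101 and 111 nRPKM with high beads against 35.1, 36.9 and 38.3 nRPKM with low beads (log2 change 1.56 ± 0.09). The arginine and lysine transporter gene Slc7a3 had 18.1, 15.7 and 16.6 nRPKM with high beads against 2.58, 2.82 and 2.69 nRPKM with low beads (log2 change 2.27 ± 0.08). The glycine transporter gene Slc6a9 averaged 13.4 ± 1.76 nRPKM with high beads and 3.53 ± 0.457 nRPKM with low beads (log2 change 1.67 ± 0.10). Vldlr, a lipoprotein receptor, averaged 3.52 ± 0.989 nRPKM with high beads and 0.192 ± 0.0519 nRPKM with low beads (log2 change 1.90 ± 0.12). High-bead and low-bead libraries were separate for all 5 genes.

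Glycolysis genes rose in 20 of 22 cases, 17 of them by at least 2-fold, none fell, and the median was 1.30. The glucose transporter gene Slc2a3 had 113, 121 and 165 nRPKM with high beads against 19.6, 21.5 and 23.1 nRPKM with low beads (log2 change 2.57 ± 0.12). Hk2, which encodes hexokinase 2 at the entry to the pathway, had 53.5, 48.9 and 51.8 nRPKM with high beads against 8.89, 10.6 and 9.34 nRPKM with low beads (log2 change 2.31 ± 0.08). Slc16a3, which encodes the lactate exporter MCT4 at its end, had 141, 137 and 152 nRPKM with high beads against 27.7, 27.3 and 30.3 nRPKM with low beads (log2 change 2.29 ± 0.06). Ldha, which makes the lactate, averaged 715 ± 3.36 nRPKM with high beads and 241 ± 13.7 nRPKM with low beads (log2 change 1.57 ± 0.07). Of 28 hypoxia-inducible genes, which overlap the glycolysis list in Slc2a1, 23 rose, 16 by at least 2-fold, and 3 fell, with a median of 1.31. Egln3, a hydroxylase that marks HIF proteins for destruction and is itself raised by HIF, had 141, 136 and 155 nRPKM in high-bead libraries against 14.2, 17.9 and 17.9 nRPKM in low-bead libraries (log2 change 3.05 ± 0.11). Ero1l (an oxidase of the endoplasmic reticulum) averaged 82 ± 8.34 nRPKM with high beads and 15.7 ± 0.894 nRPKM with low beads (log2 change 2.31 ± 0.07). Ak4, a mitochondrial adenylate kinase, averaged 13.2 ± 0.614 nRPKM with high beads and 1.81 ± 0.09 nRPKM with low beads (log2 change 2.34 ± 0.07). The HIF subunit gene Hif1a was higher as well, at 336, 308 and 325 nRPKM with high beads against 139, 109 and 112 nRPKM with low beads (log2 change 1.43 ± 0.10). The oxygen level in the wells is not given in the sources used here. Gapdh, Pgk1 and Pgam1 have near-identical copies in the genome, and their deposited values are uncertain (Gapdh was listed at only 7.3, 8 and 9.48 nRPKM with high beads and 3.25, 3.09 and 3.15 nRPKM with low beads); Tpi1 and LOC102642803 moved together, with log2 changes of 1.80 and 1.81, and may share reads.

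Metallothioneins, small proteins that bind zinc and copper, were among the largest increases. Mt1 had 114, 74.6 and 111 nRPKM with high beads against 9.91, 9.27 and 12.5 nRPKM with low beads (log2 change 3.11 ± 0.15). Mt2 had 67.7, 39.6 and 66.2 nRPKM with high beads against 3.92, 4.25 and 6.08 nRPKM with low beads (log2 change 3.33 ± 0.18). Both were lowest in replicate 2 among the high-bead libraries, which were still all above the low-bead ones. The wider list of metallothionein and zinc transport genes rose in 13 of 18 cases and fell in 4, with a median of 0.28. Of these Mt1 and Mt2 rose by at least 2-fold, followed by the importer genes Slc39a14 and Slc39a1 (log2 changes 0.94 ± 0.06 and 0.91 ± 0.06), and the zinc exporter gene Slc30a1 fell (log2 change -0.39 ± 0.07).

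Promoters are shown for a few genes of these 3 responses, which were picked by hand and do not represent their lists. The windows run from 250 bases before to 50 bases after a start site in RefSeq (GRCm38.p6) and are given 5′ to 3′ on the strand of the gene. Capitals show every match, on either strand, to letters chosen here from the element of the factor named. These letters may differ from the forms usually given. For the metallothioneins the letters are TGCNCNC, a loose form of the core of the metal response element bound by MTF-1. Mt1 (chr8:94178839-94179138, + strand) holds 3 matches and Mt2 (chr8:94172368-94172667, + strand) holds 6.
Mt1: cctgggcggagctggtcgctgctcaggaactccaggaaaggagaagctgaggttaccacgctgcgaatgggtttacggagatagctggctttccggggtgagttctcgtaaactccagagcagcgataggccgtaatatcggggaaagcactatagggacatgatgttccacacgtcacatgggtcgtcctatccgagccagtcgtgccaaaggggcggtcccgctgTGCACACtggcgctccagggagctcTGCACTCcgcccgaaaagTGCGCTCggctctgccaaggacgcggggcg
Mt2: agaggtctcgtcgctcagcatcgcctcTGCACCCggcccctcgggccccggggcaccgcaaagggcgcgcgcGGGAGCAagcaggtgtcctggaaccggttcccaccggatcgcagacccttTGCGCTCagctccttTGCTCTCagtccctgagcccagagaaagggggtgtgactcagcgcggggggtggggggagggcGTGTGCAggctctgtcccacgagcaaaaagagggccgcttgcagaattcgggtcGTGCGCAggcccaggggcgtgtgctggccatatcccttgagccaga

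For hypoxia-inducible genes the letters are ACGTG, the core of the HIF element, which also lies within the CACGTG box of other factors. Egln3 (chr12:54203825-54204124, - strand) holds 1 match, and Ankrd37 (chr8:45999801-46000100, - strand), which had 11.9 ± 0.512 nRPKM with high beads and 7.93 ± 0.903 nRPKM with low beads, holds 2.
Egln3: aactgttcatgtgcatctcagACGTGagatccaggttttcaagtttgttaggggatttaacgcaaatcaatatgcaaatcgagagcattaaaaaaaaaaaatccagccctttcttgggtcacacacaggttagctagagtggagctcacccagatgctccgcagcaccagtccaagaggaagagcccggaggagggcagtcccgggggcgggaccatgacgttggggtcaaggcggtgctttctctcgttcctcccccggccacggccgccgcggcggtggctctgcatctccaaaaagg
Ankrd37: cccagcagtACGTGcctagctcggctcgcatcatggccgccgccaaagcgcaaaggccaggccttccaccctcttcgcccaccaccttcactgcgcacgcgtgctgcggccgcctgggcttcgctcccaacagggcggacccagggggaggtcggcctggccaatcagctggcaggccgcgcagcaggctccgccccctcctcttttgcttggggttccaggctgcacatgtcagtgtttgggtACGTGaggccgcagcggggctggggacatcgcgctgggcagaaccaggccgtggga

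For ATF4 genes the letters are TTGNATCA, from the composite element of C/EBP and ATF proteins, and do not cover all forms of it. Chac1 (chr2:119350992-119351291, + strand), a glutathione-degrading enzyme gene with 15.4, 12.1 and 13.8 nRPKM in high-bead libraries against 4.34, 5.22 and 5.32 nRPKM in low-bead libraries, holds 1 match.
Chac1: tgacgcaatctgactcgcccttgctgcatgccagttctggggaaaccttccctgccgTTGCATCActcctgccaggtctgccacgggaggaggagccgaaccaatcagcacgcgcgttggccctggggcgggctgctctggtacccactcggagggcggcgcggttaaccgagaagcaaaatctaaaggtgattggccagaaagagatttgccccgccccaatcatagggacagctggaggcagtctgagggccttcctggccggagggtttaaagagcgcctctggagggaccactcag

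Over whole lists these letters were counted in every tested gene with a promoter window in the table. TTGNATCA occurred in 7 of 27 ATF4 genes (25.9%), against 178 of 8730 tested genes (2.04%). Atf4, Asns and Slc6a9 were among the ATF4 genes without it. ACGTG occurred in 16 of 23 hypoxia genes (69.6%), against 2603 of 8730 (29.8%), and was absent from the windows of Adm, Kdm3a and Pdk1. TGCNCNC is so short that 5551 of the 8730 genes (63.6%) held it, beside 13 of 15 genes of the metallothionein and zinc list (86.7%). The AP-1 letters TGANTCA occurred in 3 of 18 cytokine genes (16.7%), against 498 of 8730 (5.7%). They were present for Lif, which rose, and for Cxcl10, which fell, and absent from the windows of Il21, Il13, Il4 and Il5. These counts describe letters in a short window and do not show binding.

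Lipid synthesis genes were mostly higher. Of 27 cholesterol genes 24 rose, 5 by at least 2-fold, and 1 fell, with a median of 0.80. The largest were Fdps (farnesyl diphosphate synthase), at 11.8 ± 1.19 nRPKM with high beads and 3.98 ± 0.726 nRPKM with low beads (log2 change 1.36 ± 0.11), Lss (lanosterol synthase, log2 change 1.29 ± 0.06), Cyp51 (log2 change 1.23 ± 0.07) and Insig1, the sterol sensor (log2 change 1.15 ± 0.07). Of 17 fatty acid genes 14 rose and 3 fell, with a median of 0.67. The desaturase gene Scd2 had 276, 266 and 307 nRPKM in high-bead libraries against 37.8, 44.3 and 41.7 nRPKM in low-bead libraries (log2 change 2.75 ± 0.09). Fads2 had 23.8, 25.8 and 29.7 nRPKM with high beads against 2.24, 3.18 and 3.75 nRPKM with low beads (log2 change 2.77 ± 0.16). Scd1, another desaturase gene, had 16.1, 15.2 and 18.2 nRPKM with high beads against 1.08, 1.28 and 5.14 nRPKM with low beads, where replicate 3, which also held most lung epithelium RNA, stood apart (log2 change 2.50 ± 0.41); the part of that RNA was not tested.

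Growth and protein synthesis genes rose mostly by less than 2-fold. Of 11 genes of MYC and polyamine synthesis 6 rose and 4 fell (median 0.18). Myc, a transcription factor gene of cell growth, had 167, 148 and 139 nRPKM with high beads against 73.6, 81.1 and 74.7 nRPKM with low beads (log2 change 0.97 ± 0.07). Srm, which makes spermidine, averaged 83.4 ± 11.1 nRPKM with high beads and 35.3 ± 3.69 nRPKM with low beads (log2 change 1.21 ± 0.10). All 27 ribosome biogenesis genes rose (median 0.80), led by Rrp12 at 35.6 ± 5.06 nRPKM with high beads and 10.9 ± 0.843 nRPKM with low beads (log2 change 1.62 ± 0.12). Translation factor genes rose in 19 of 22 cases and fell in 2 (median 0.65), led by Eif4ebp1, the inhibitor of cap-dependent translation that mTORC1 switches off, at 184, 157 and 168 nRPKM with high beads against 42.7, 46.7 and 45.4 nRPKM with low beads (log2 change 1.89 ± 0.09). Chaperonin and heat shock genes rose in 16 of 18 cases (median 0.76), among them Hsp90ab1 at 1536 ± 55 nRPKM with high beads and 658 ± 33.9 nRPKM with low beads (log2 change 1.22 ± 0.07). Proteasome genes rose in 27 of 31 (median 0.61), genes of the respiratory chain in 27 of 28 (median 0.46), pentose phosphate and nucleotide synthesis genes in 29 of 31 (median 0.59), and endoplasmic reticulum chaperone genes in 15 of 21 (median 0.43). Cytosolic ribosomal protein genes rose in 23 of 28 with the smaller median of 0.30, and their deposited levels are uncertain because of processed copies.

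Genes of DNA replication and mitosis changed by less than 2-fold between low and high beads. All 34 DNA replication genes rose, with a median of 0.58. Between no beads and low beads under anti-Ox40, a comparison that shares the low-bead libraries, all 34 rose with a median of 1.72. In that comparison 70.8% of tested genes were called, 37.1% higher, 7.92% changed by at least 2-fold, 5.52% upward, and the median over all was 0.007. Of 30 mitosis genes, 25 rose at the step to high beads (median 0.45), and all 30 between no and low beads (median 3.11). The origin-licensing gene Cdc6 averaged 0.588, 9.71 and 18.7 nRPKM at 0, 0.1 and 1 bead per cell, and the mitotic kinase gene Aurkb 2.86, 49.7 and 81.2 nRPKM. Mki67, the proliferation marker, averaged 7.03, 88 and 98.3 nRPKM, and its change between low and high beads of 0.16 ± 0.10 did not pass the test (adjusted p = 0.165). Glycolysis genes, by contrast, had medians of 1.26 for the first step and 1.30 for the second, and hypoxia-inducible genes 0.67 and 1.31. The kinase inhibitor gene Cdkn1a, which encodes p21, rose to 113, 87.9 and 93.7 nRPKM with high beads, against 18.9, 20.1 and 18.2 nRPKM with low beads (log2 change 2.30 ± 0.12). Cdkn1b, which encodes p27 of resting cells, fell to 28.6 ± 2.13 nRPKM with high beads, against 61.8 ± 3.68 nRPKM with low beads (log2 change -1.08 ± 0.07).

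**Figure D3:**
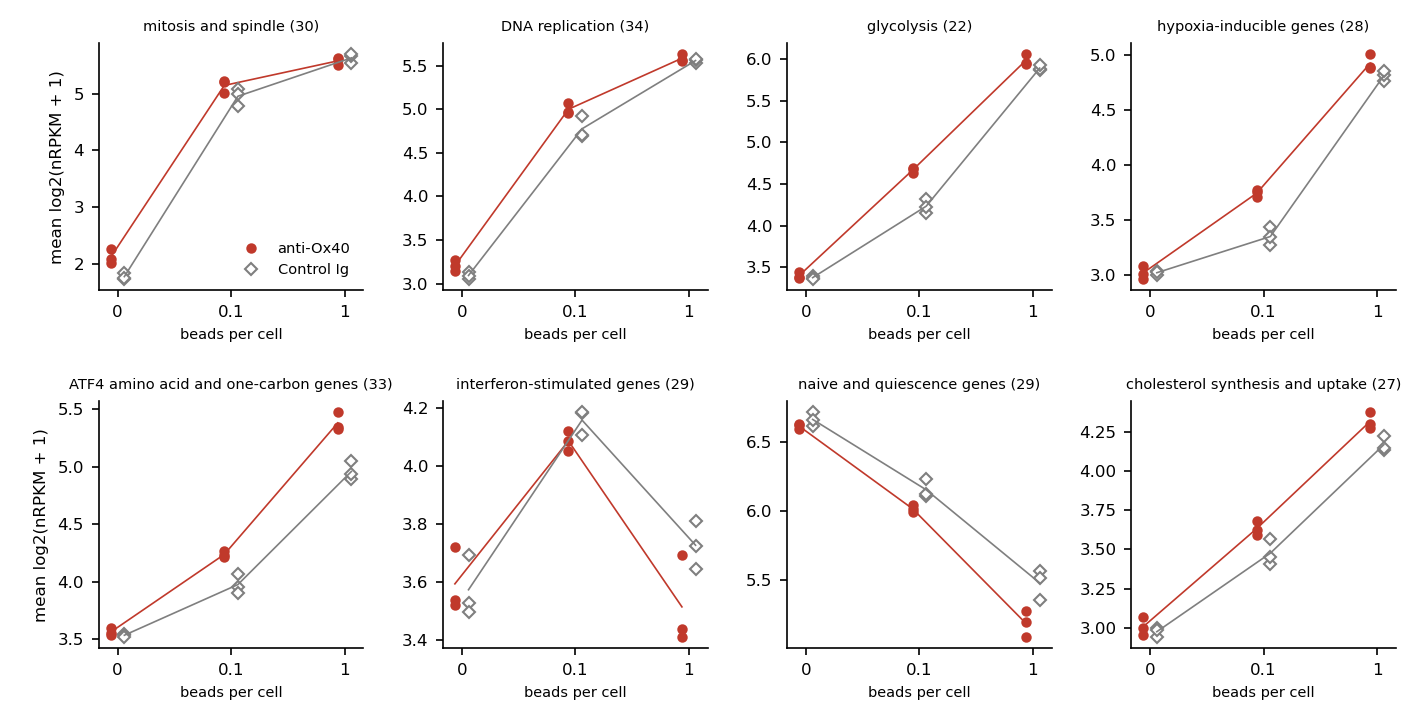
Mean log2(nRPKM + 1) of the tested members of 8 gene lists at 0, 0.1 and 1 bead per cell, 1 point per library, red for anti-Ox40 and open grey for control Ig, lines joining group means; the number of members is in parentheses. Mitosis genes climb mostly at the first step (medians 3.11 and then 0.45 under anti-Ox40) and glycolysis genes at both. Interferon-stimulated genes are highest at 0.1 bead per cell under both antibodies.

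Targets of p53 rose in 17 of 22 cases and fell in 4 (7 and 2 by at least 2-fold, median 0.71). Besides Cdkn1a the largest increases were in the kinase gene Plk2, at 9.59, 7.8 and 11.8 nRPKM with high beads against 0.886, 0.819 and 1.07 nRPKM with low beads (log2 change 2.46 ± 0.13), and in the stress gene Gadd45g, at 34.4 ± 1.53 nRPKM with high beads and 9.69 ± 0.447 nRPKM with low beads (log2 change 1.73 ± 0.12). Sesn1 and Btg2, which resting T cells also express, fell (log2 changes -1.71 ± 0.11 and -1.28 ± 0.09), and Trp53 itself changed by 0.22 ± 0.06. In the BCL2 family, Bcl2l1, which encodes the Ox40-responsive survival protein BCL-XL, had 31.2, 29.5 and 25.9 nRPKM with high beads against 12.4, 15 and 13.8 nRPKM with low beads (log2 change 1.02 ± 0.10), and Bax, its pro-death opponent, rose too, at 165 ± 10.7 nRPKM with high beads and 86.9 ± 3.75 nRPKM with low beads (log2 change 0.91 ± 0.08). Bcl2 did not pass the test (log2 change 0.15 ± 0.09, adjusted p = 0.162). Of the 5 anti-apoptotic members tested 2 rose and 1 fell, and of 8 pro-apoptotic members 4 rose; the calls of Mcl1 and Bid were lost when some single libraries were left out.

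Interferon-stimulated genes were mostly lower with high beads, with 20 of 29 lower, 5 higher and a median of -0.70. Ifi203, a DNA sensor family gene, had 0.439, 1.42 and 0.696 nRPKM in high-bead libraries against 16.8, 14.5 and 18.6 nRPKM in low-bead libraries (log2 change -3.28 ± 0.18). Ifit3 averaged 0.256 ± 0.0612 nRPKM with high beads and 3.47 ± 0.434 nRPKM with low beads (log2 change -1.83 ± 0.12). Irf7, the amplifier of the response, averaged 5.23 ± 1.78 nRPKM with high beads and 15.8 ± 0.559 nRPKM with low beads (log2 change -1.47 ± 0.15). Isg15 and Bst2 went against the list, with log2 changes of 1.02 ± 0.15 and 0.53 ± 0.07. In the mean over the list, high-bead replicate 2 stood above the other high-bead libraries, at 3.695 on the log2 scale beside 3.412 and 3.438, and the low-bead libraries lay at 4.052 to 4.12. Genes of MHC class I and antigen processing fell in 10 of 13 cases and rose in 1 (median -0.31), Nlrc5, their transactivator, most of all, to 24.8 ± 1.29 nRPKM with high beads, against 50.4 ± 1.35 nRPKM with low beads. S100, annexin and galectin genes, which mark memory and effector cells, fell in 10 of 16 cases and rose in 3 (median -0.40). S100a4 fell to 5.14, 4.63 and 3.07 nRPKM with high beads, against 33, 22.1 and 28.3 nRPKM with low beads (log2 change -2.45 ± 0.22), and Anxa2 rose to 160 ± 13.4 nRPKM with high beads, against 53.6 ± 6.35 nRPKM with low beads (log2 change 1.56 ± 0.10). Methylation enzyme genes showed 6 higher and 4 lower of 13, and Ezh1 of resting cells was at 8.7 ± 0.129 nRPKM with high beads against 18.9 ± 0.294 nRPKM with low beads (log2 change -1.04 ± 0.04). Clock and nuclear receptor genes showed 6 higher and 14 lower of 24, led by Vdr, the vitamin D receptor gene (log2 change 1.34 ± 0.13), and Nr1d2, which encodes REV-ERB beta (log2 change -1.04 ± 0.09).

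The same bead step was made under control Ig, in libraries that share none with the anti-Ox40 step. There 9483 genes were called (72.5%), 5231 of them higher (40%). Over all tested genes 934 changed by at least 2-fold (7.14%), 470 of them upward (3.59%). Of the 1018 genes that changed by at least 2-fold under anti-Ox40, 989 were called in the same direction under control Ig and 0 in the opposite one, and the changes correlated at 0.926 (Pearson) across all tested genes, which are not independent. The difference of the 2 steps, anti-Ox40 minus control Ig, was called for 414 genes (3.17%), 192 positive (1.47%) and 222 negative (1.7%); 102 of the 1018 genes were among them. The median size of a called difference was 0.41 on the log2 scale. This count moved with single libraries. It was 108 without anti-Ox40 high-bead replicate 1, 182 and 137 without low-bead replicates 1 and 3, 653, 166 and 102 without control Ig high-bead replicates 1, 2 and 3, and 219, 1243 and 149 without control Ig low-bead replicates 1, 2 and 3. Control Ig low-bead replicate 2 stood apart from its group in nuclear RNA score, at 4.82 beside 5.59 and 5.54. Without all 6 libraries numbered 3 it was 3. Of the 414 genes 93 were called in all 12 fits that each left out 1 library.

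Positive differences were found for genes of several functions. Btla, the inhibitory receptor that binds HVEM, rose with beads under anti-Ox40 and fell under control Ig. It had 21.9, 19.1 and 16.1 nRPKM with high beads and 10.9, 11.7 and 12.1 nRPKM with low beads under anti-Ox40, and 8.69, 6.73 and 6.88 nRPKM with high beads and 11.4, 10.1 and 13.8 nRPKM with low beads under control Ig. The log2 changes were 0.66 ± 0.11 and -0.59 ± 0.11, and the difference 1.26 ± 0.16 (adjusted p = 0.0015). Bcl2l14, a BCL2 family gene, had the largest difference, 1.43 ± 0.11 (adjusted p = 1.23e-05). Its levels were 6.07, 5.68 and 4.96 nRPKM with high beads and 0.354, 0.453 and 0.3 nRPKM with low beads under anti-Ox40, against 1.18, 1.06 and 0.916 nRPKM with high beads and 0.137, 0.189 and 0.139 nRPKM with low beads under control Ig. Plk2 had a difference of 1.14 ± 0.18. Btla, Bcl2l14 and Plk2 were called in all 12 leave-out fits. Further positive differences, called in the full fit but not in every leave-out fit, were found for Enpp2 (autotaxin, which makes lysophosphatidic acid), Timp1, Il5, Batf3, Tnip3 (a binding partner of A20) and Cnn3, between 0.79 and 1.26. Il5, a type 2 cytokine gene, had 3.06, 3.05 and 3.25 nRPKM with high beads and 0.292, 0.778 and 1.11 nRPKM with low beads under anti-Ox40, against 0.808, 0.922 and 0.717 nRPKM with high beads and 0.255, 0.514 and 0.402 nRPKM with low beads under control Ig. Cd69 also had a positive difference, of 0.52 ± 0.12 (adjusted p = 0.0356), and its call was lost in at least 1 leave-out fit.

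Negative differences included glycolysis and hypoxia genes that rose under both antibodies. The difference was called lower for 9 of 22 glycolysis genes and none higher, and for 9 of 28 hypoxia genes lower and 1 (P4ha2) higher, beside 1.7% and 1.47% of all tested genes. Such calls were not particular to metabolic lists. The difference was lower for 6 of 16 S100, annexin and galectin genes, whose median step was -0.40 under anti-Ox40 and 0.05 under control Ig. It was lower for 4 of 24 T cell receptor genes and 4 of 21 integrin and adhesion genes, with 0 higher in these 3 lists. Among NF-kB genes 3 of 20 were higher and 0 lower. Slc16a3 had 141, 137 and 152 nRPKM with high beads and 27.7, 27.3 and 30.3 nRPKM with low beads under anti-Ox40, against 131, 128 and 131 nRPKM with high beads and 11.4, 13.5 and 13.1 nRPKM with low beads under control Ig. The high-bead levels were thus near each other and the low-bead levels apart, and the difference was -0.97 ± 0.08 (adjusted p = 3.25e-05). Mgarp, a mitochondrial protein gene, showed the same arrangement, at 26.1, 27.1 and 30 nRPKM with high beads and 3.87, 4.62 and 5.42 nRPKM with low beads under anti-Ox40 against 26.2, 27.5 and 25.7 nRPKM with high beads and 1.43, 1.46 and 1.54 nRPKM with low beads under control Ig (difference -1.11 ± 0.12), as did Tpi1 (-0.89 ± 0.10) and Aldoc (-1.02 ± 0.18). Klf2 fell further under anti-Ox40, to 28.8, 43.4 and 36 nRPKM with high beads, against 203, 202 and 193 nRPKM with low beads, beside 63.2, 91.3 and 81.7 nRPKM with high beads and 215, 253 and 209 nRPKM with low beads under control Ig (difference -0.93 ± 0.19). Dusp6, the phosphatase that switches off ERK, rose less under anti-Ox40, with high-bead values of 18.5, 22.7 and 28.4 nRPKM, against 36.6, 42.9 and 51.4 nRPKM under control Ig (difference -0.97 ± 0.20). Nsg2, F2rl2, LOC102642803 and the platelet gene Pf4 completed the 10 with the largest negative differences, at -0.87 to -1.04. Slc16a3, Mgarp, Tpi1, Aldoc and LOC102642803 were called in all 12 leave-out fits, while Klf2, Dusp6, Nsg2, F2rl2 and Pf4 each lost the call in at least 1.

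**Figure D4:**
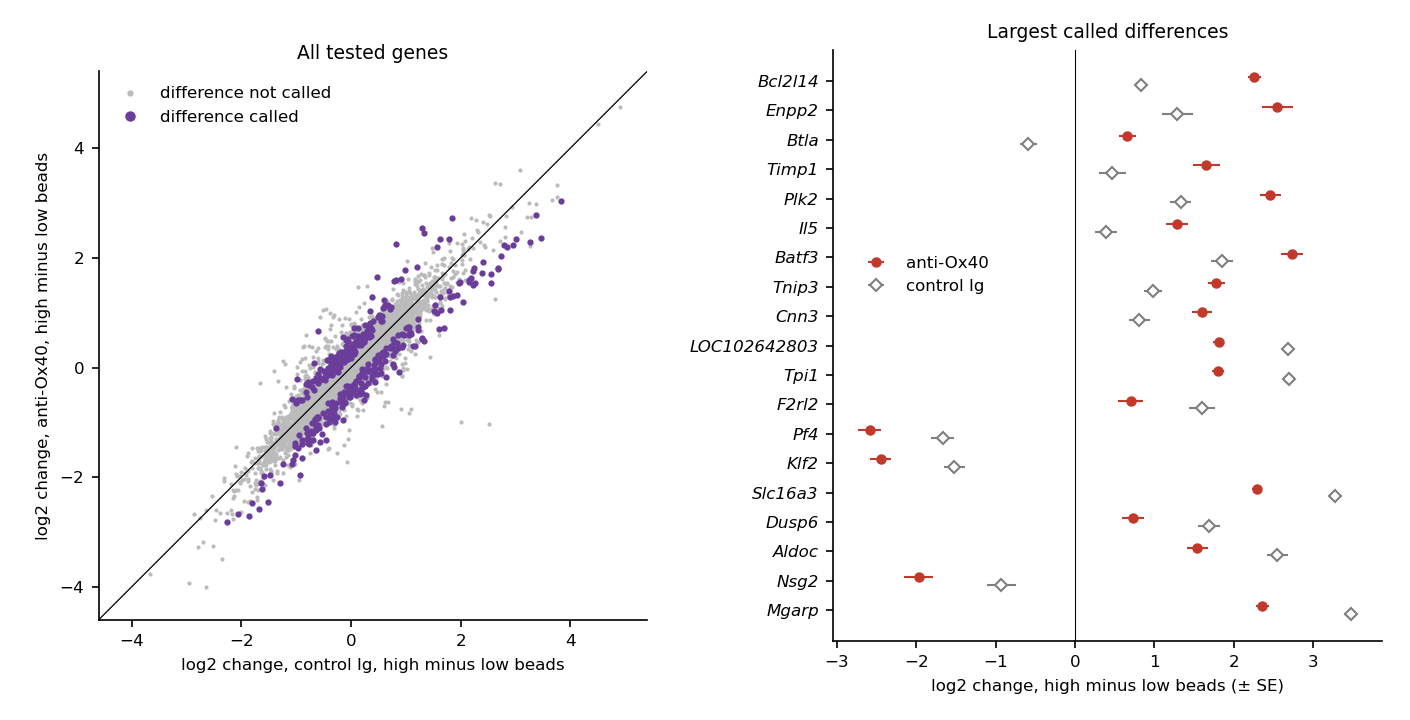
Left, log2 change between high and low beads for each tested gene under anti-Ox40 (vertical) and control Ig (horizontal), with the 414 called differences in purple and the line of equal change; right, 9 positive and 10 negative differences from among the largest called, as the change ± SE under each antibody, red circles for anti-Ox40 and open grey diamonds for control Ig. Most genes lie near the line, Btla is called upward under anti-Ox40 and downward under control Ig, and the negative differences include Mgarp, Aldoc, Slc16a3 and Tpi1.

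Not all genes were ordered by bead dose under anti-Ox40. Of the 13075 tested genes, 419 (3.2%) were called higher at 0.1 than at 0 beads per cell and lower at 1 than at 0.1, 40 of them lower by at least 2-fold, and 524 (4.01%) took the opposite course, 36 of them higher by at least 2-fold at 1 than at 0.1. Both comparisons share the low-bead libraries. Among interferon-stimulated genes 10 of 29 peaked at low beads. The mean over that list was highest at 0.1 bead per cell under control Ig as well. It was 3.498 to 3.694, 4.107 to 4.185 and 3.647 to 3.81 in control Ig libraries at 0, 0.1 and 1 bead per cell. Of the genes with at least a 2-fold second step, the rule named 6 of each course by the smaller of their 2 changes. Peaks at low beads were seen for the interferon-inducible GTPase gene Iigp1, at 16.8, 10.3 and 10.4 nRPKM at 0, 44, 38.3 and 43.5 nRPKM at 0.1 and 13.4, 15.9 and 11.6 nRPKM at 1 bead per cell, and for Drc1, Ms4a4c, Car1, Tmie and LOC102639434. Drc1 had 1.16, 1.29 and 1.58 nRPKM at 0, 5.22, 7.11 and 8.69 nRPKM at 0.1 and 0.175, 0.211 and 0.134 nRPKM at 1 bead per cell. The carbonic anhydrase gene Car1 was at 0 in all 3 libraries without beads. The opposite course, a dip at low beads, was seen for Hmox1, which encodes the heme-degrading enzyme heme oxygenase 1, at 16.7, 23.4 and 24.6 nRPKM at 0, 5.77, 5.08 and 5.38 nRPKM at 0.1 and 19.5, 17 and 17.8 nRPKM at 1 bead per cell. Il1rn, the IL-1 receptor antagonist gene, followed the same course at 4.98, 6.01 and 7.11, then 2.38, 1.54 and 1.15, then 24.5, 13 and 13.8 nRPKM, as did Lilrb4, Basp1, Serpinf1 and, with overlapping libraries, the small nucleolar RNA gene Snord58b. Hmox1 and Il1rn are also expressed by myeloid cells. Markers of these cells summed to 292 to 427 nRPKM in the anti-Ox40 libraries without beads and to 20.3 to 36.5 nRPKM in those with low beads. The part of myeloid RNA in the course of any gene with a dip, Lilrb4 included, was not tested.

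RNA of other cell types was present at low levels and differed between the groups. A sum of 20 myeloid markers was 7.84 to 10.7 nRPKM in high-bead libraries and 20.3 to 36.5 nRPKM in low-bead libraries, and 8 of the 15 tested fell while none rose. Lyz2 had 1.94, 3.56 and 2.08 nRPKM with high beads against 14.4, 8.57 and 21.7 nRPKM with low beads, and Csf1r was at 0.444 nRPKM or less. Platelet markers summed to 7.29 to 7.64 nRPKM with high beads against 39.1 to 53.4 nRPKM with low beads, and all 8 tested fell, Pf4 with a log2 change of -2.59 ± 0.14. Neutrophil markers summed to 3.65 to 6.63 nRPKM with high beads against 10.9 to 19.8 nRPKM with low beads. Of 6 tested 4 fell and 1 rose. Cxcr2 was higher, at 2.05, 2.6 and 3.45 nRPKM with high beads against 0.478, 0.646 and 0.769 nRPKM with low beads. B cell markers were at 8.29 to 12.6 nRPKM with high beads and at 8.23, 9.84 and 52.3 nRPKM with low beads, and 1 of 11 tested was called. Number 3 had the highest B cell sum in all 6 groups of the study, at 44.2 nRPKM without beads under anti-Ox40, and at 17.1 nRPKM with high, 60.5 nRPKM with low and 46.3 nRPKM without beads under control Ig. Lung epithelium genes, foreign to a spleen culture, reached 231 nRPKM in anti-Ox40 low-bead replicate 3, against 45.3 and 68.8 nRPKM in the other low-bead libraries and 32.4 to 58.3 nRPKM with high beads. Without beads under anti-Ox40 they summed to 7.41 to 9.09 nRPKM, and 6 of 7 tested were called higher with low than with no beads. Under control Ig they summed to 5.61 to 33.8 nRPKM with low beads and 35.3 to 129 nRPKM with high beads. The NK cell list summed to 77.7 to 124 nRPKM with high beads and 35.7 to 43.8 nRPKM with low beads with Gzma as its most abundant gene, with Klrd1, Klrk1, Klrb1c and Eomes lower and Ncr1 at 0.684 nRPKM or less. Plasma cell genes summed to 41.7 to 49.0 nRPKM with high beads against 65.2 to 74.5 nRPKM with low beads. The nuclear RNA Malat1 fell to 66.7, 70.8 and 59.6 nRPKM with high beads, against 213, 248 and 254 nRPKM with low beads (log2 change -1.84 ± 0.30). The part of these RNAs in the changes of Pf4, Lyz2, Hmox1, Il1rn, Lilrb4, Ccl22, Pou2af1 and the interferon genes was not tested.

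**Figure D5:**
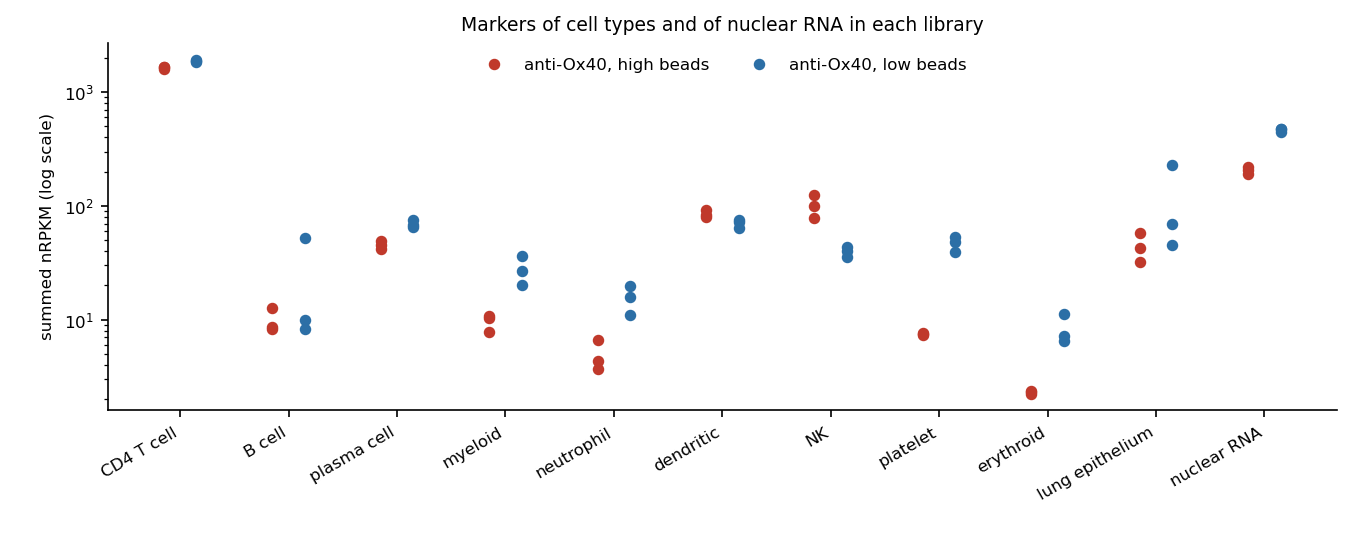
Summed nRPKM, on a log scale, of marker genes of each cell type and of nuclear RNA in the anti-Ox40 libraries, 1 point per library, red for high beads and blue for low beads. Platelet, myeloid, neutrophil, plasma cell, erythroid, CD4 T cell and nuclear RNA sums are lower in all high-bead libraries. One low-bead library, replicate 3, stands apart for B cell (52.3) and lung epithelium (231) genes.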

How the data were processed

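RNA of 18 libraries, in 6 groups of 3, was measured by RNA sequencing, with 100 to 500 ng RNA and 10 PCR cycles per the labels' protocols. The authors deposited 1 table of RPKM values with a further normalization (nRPKM) for 36528 entries; GSNAP and GRCm38 are named in the submitters' processing notes, and how the further normalization was done is not given in the sources used here. Entries without a symbol (6), turned into dates (27) or sharing a symbol (6) were not named.

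From these values log2(nRPKM + 1) was computed, so fold changes of low genes are understated. Genes with at least 1 nRPKM in at least 3 libraries (13075) were fitted with limma 3.58.1 in R 4.3.3, using all 18 libraries, 6 group means and 12 residual degrees of freedom, trended empirical Bayes and Benjamini-Hochberg adjustment, and the difference between antibodies as an interaction contrast. Values are not counts, so no count test was used. The script was tested on simulated data. Errors beside log2 changes are SE, and those beside levels are SD with n = 3. Groups come from the labels, and replicate numbers are accession order.

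Named genes are Tnfrsf4, Tnfsf4, Il2ra, Cd69, Cd4 and Cd28, the 15 largest increases and 15 largest decreases of at least 2-fold without overlap, the 4 largest called changes of each list and strong exceptions to it, the 10 largest differences of each sign, and 6 genes of each course with a peak or dip at low beads. A few genes that the rule names are not reported here. Other genes were named after their values were seen, among them Foxp3, Il4, Ifng, Il2, Batf, Atf4, Asns, Chac1, Hif1a, Ankrd37, Ldha, Tcf7, Il7r, Il2rb, Il2rg, Ccr7, Cxcr5, Pdcd1, Mki67, Bcl2 and Trp53. The comparison, members and lists were chosen with earlier results of these data known. Alternatives were pseudocounts, filters, scalings, a nuclear RNA covariate, a replicate block, smaller fits and leaving out libraries. Promoters came from RefSeq (GRCm38.p6).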

Additional observations from a re-analysis of the deposited data

Results flagged for a closer look

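The bead step differed between the antibodies for 77 of the genes named or listed here, by the test of the difference itself (anti-Ox40 minus control Ig, on the log2(nRPKM + 1) scale, limma adjusted p under 0.05 over all tested genes). The values in parentheses are these differences. For 26 of them the call was kept in all 12 fits that each left out 1 library. Among these, the step was more positive under anti-Ox40 for Bcl2l14 (1.43), Btla (1.26), Plk2 (1.14), P4ha2 (0.71), Chuk (0.41), Slc38a2 (0.39) and Eif4a2 (0.36). It was more negative for Mgarp (-1.11), Aldoc (-1.02), Slc16a3 (-0.97), Tpi1 (-0.89), LOC102642803 (-0.87), Egln3 (-0.79), Ak4 (-0.67), Aldoa (-0.62), Tg (-0.60), Stat4 (-0.57), Bhlhe40 (-0.56), Pkm (-0.55), Ptpn22 (-0.53), Pfkl (-0.52), Tnfsf11 (-0.51), Egln1 (-0.49), Cd96 (-0.48), Slc2a1 (-0.47) and Anxa5 (-0.38).

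The other 51 lost the call in at least 1 of those fits. Positive differences among them were those of Enpp2 (1.26), Timp1 (1.18), Il5 (0.90), Batf3 (0.88), Tnip3 (0.80), Cnn3 (0.79), Nr4a3 (0.68), Lif (0.55), Tnfaip3 (0.53), Cd69 (0.52), Rel (0.50), Stat5a (0.46), Slc39a10 (0.41), Arntl (0.29) and Mdm2 (0.23). Negative differences of larger size were those of Nsg2 (-1.04), Dusp6 (-0.97), Klf2 (-0.93), Pf4 (-0.92), F2rl2 (-0.91), Tmem71 (-0.84), Bcl2a1b (-0.81), Ankrd37 (-0.76), Ndrg1 (-0.72), Entpd1 (-0.70), Smpdl3a (-0.63) and Slfn1 (-0.60). Smaller negative differences were those of Anxa2 (-0.58), S100a11 (-0.58), Vim (-0.54), Bnip3 (-0.54), S1pr4 (-0.50), Cd3g (-0.49), Lgals1 (-0.46), 4632428N05Rik (-0.46), Bcl6 (-0.46), E2f2 (-0.46), Vegfa (-0.44), Ldha (-0.42), Tbx21 (-0.39), Selplg (-0.38), Cd44 (-0.36), Cd3d (-0.35), Anxa6 (-0.35), Cd3e (-0.35), Mthfd1l (-0.34), Bak1 (-0.33), Itgal (-0.33), Mcm6 (-0.33), Gpi1 (-0.31) and Itgb7 (-0.28). Groups of 3 libraries are too small to test single libraries for standing apart.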

How the results depend on the processing

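Counts of called genes for high against low beads stayed within 1.5 times of 9348 under the planned settings other than the nuclear RNA covariate, which gave 4955 (2661 higher, 2294 lower) under anti-Ox40 and 4873 under control Ig. A pseudocount of 0.1 gave 1149 genes lower by at least 2-fold, against 560 with a pseudocount of 1, since low values then weigh more. The 414 called differences between the antibodies moved more: the count was 263 with no filter, 152 when fitted to the 12 libraries with beads, 950 with the nuclear RNA covariate, and 102 to 1243 when 1 library was left out. Chosen after seeing the data, leaving out control Ig low-bead replicate 2 and anti-Ox40 low-bead replicate 3 gave 726, and leaving out the 6 libraries numbered 3 gave 3. Replicate numbers follow accession order, and the labels name no source that same-numbered libraries share; with them as a replicate block the difference was called for 692 genes, same-numbered anti-Ox40 libraries deviated together at correlations of 0.103 to 0.155, and all 18 libraries correlated best with their own number, a hint from the data only. Of 262 named genes, 255 kept direction and call in the fits that left out 1 library, 254 under the other settings and 229 with the nuclear RNA covariate. Of 55 lists, 52, 45 and 33 kept their direction and a count within 1.5 times under the same sets of settings; 4 TNF receptor genes were called higher at nRPKM of at least 5, turning that list's larger direction. Signs turned for Cd28 (-0.06) and Itgax (0.05) under quantile normalization. With the covariate, the values of Malat1 (0.17) and of the nuclear RNA list (0 lower) say nothing about Malat1 and Neat1. Both enter the covariate, beside Kcnq1ot1, which was not itself tested. Xist, the list's other tested member, does not enter it. Other causes were not tested. Depth limits values near 0 nRPKM, and the share higher among called genes was 52.2% under median-ratio scaling, against 56.3% with the deposited scaling.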
